A study of Rattus norvegicus with 65 samples.

Results

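The genes described here encode 10 proteins that carry long-chain fatty acids into mitochondria and shorten them there by beta-oxidation: Cpt1a, Cpt1b, Slc25a20, Cpt2, Acadvl, Acadl, Acadm, Hadha, Hadhb and Acaa2. They were chosen by name, as the carnitine shuttle and the enzymes of the oxidation spiral, and all 10 symbols were found among the 14554 genes of the count table. PolyA RNA of neonatal rat cardiomyocytes was sequenced; these were primary cells of the heart muscle, isolated from newborn animals and starved of serum before treatment, and 65 libraries fell into 10 groups. The exposures were 10 mM 5-fluorouracil (5FU), a pyrimidine analogue, 2.5 mM acetaminophen (Ace), an analgesic, and 1.25 µM doxorubicin (Dox), an anthracycline, each for 6 or 24 hours. The vehicle controls were DMSO1 with 1% dimethyl sulfoxide, which was the control of 5FU, and DMSO2 with 0.25%, which was shared by Ace and Dox. In the paper, each drug at its dose lowered cell viability at 24 hours. Only Dox also raised cell death significantly at that time. The 5FU and DMSO1 groups held 6 libraries at each time, the DMSO2 and Dox groups held 7, and the Ace groups held 6 at 6 hours and 7 at 24 hours. All libraries came from cells of several litters that had been mixed before plating, so they were parallel cultures of the same cell preparation, and the p-values below measure the spread between cultures only.

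Fatty acids are a main fuel of the mature heart, and heart cells increase their oxidation after birth. A long-chain acyl-CoA cannot cross the inner mitochondrial membrane: carnitine palmitoyltransferase 1 moves the acyl group to carnitine at the outer membrane, the translocase Slc25a20 carries the acylcarnitine across, and Cpt2 restores the acyl-CoA inside. Cpt1a is the isoform of liver and of the newborn heart, whereas Cpt1b is the isoform of muscle. In the matrix, the acyl-CoA dehydrogenases Acadvl, Acadl and Acadm start each round of shortening on very long, long and medium chains, the trifunctional protein built from Hadha and Hadhb carries out the following steps on long chains, and the thiolase Acaa2 releases acetyl-CoA.

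Library totals lay between 14332827 and 25738297 counts, and the lowest count of any member in any library was 453, for Cpt1a. Levels are given as CPM, the counts of a gene per 1e6 counts of its library after scaling by the trimmed mean of M-values (TMM). Because the counts were not divided by transcript length, levels of the members were compared between groups and never between genes. Of 16 cardiomyocyte markers, 15 were in the table, and their summed level in the 4 control groups had medians between 51669 and 69190 CPM, against 9257 to 16845 CPM for 12 fibroblast markers and 213 to 357 CPM for 10 endothelial markers. These sums hold different genes in unlike numbers and do not measure the shares of the cell types. Transcripts of other heart cells were thus present, and in bulk RNA fewer cells of a type and less RNA per cell cannot be told apart. In 3 libraries the genes lay farther from their group mean than in the others: library 1 of 5FU at 6 hours, library 7 of Dox at 24 hours and library 1 of DMSO1 at 24 hours had median absolute deviations of 0.205, 0.204 and 0.198 on the log2 scale, and the next library had 0.176. Without these 3 libraries, 9 of 160 tests of a member gained or lost a call, and each is given with its result below.

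Promoter windows of 250 bases before to 50 bases after the start of the gene were at hand from RefSeq (build GRCr8) for 7 of the 10 genes, and 3 are printed here: that of Hadha, because it overlaps the window of its partner subunit, and those of Cpt1a and Cpt2, because these genes had large decreases under Dox. Hadha lies on the plus strand (chr6:31907551-31907850) and Hadhb on the minus strand, with first bases 301 bases apart. The capitals in the Hadha window mark the 200 bases (chr6:31907551-31907750) that it shares with the Hadhb window, so that the genes for the subunits of the same enzyme are read in opposite directions from a common stretch. Cpt1a (chr1:209995910-209996209, plus strand) held none of the motifs searched, had 48.3% G and C and 12 CpG, and is printed all in lower case. Cpt2 (chr5:127910769-127911068, minus strand) had 66.7% G and C and 31 CpG, and its capitals mark 3 GC boxes with the letters GGGCGG, which begin 126, 99 and 59 bases before the start.
Hadha: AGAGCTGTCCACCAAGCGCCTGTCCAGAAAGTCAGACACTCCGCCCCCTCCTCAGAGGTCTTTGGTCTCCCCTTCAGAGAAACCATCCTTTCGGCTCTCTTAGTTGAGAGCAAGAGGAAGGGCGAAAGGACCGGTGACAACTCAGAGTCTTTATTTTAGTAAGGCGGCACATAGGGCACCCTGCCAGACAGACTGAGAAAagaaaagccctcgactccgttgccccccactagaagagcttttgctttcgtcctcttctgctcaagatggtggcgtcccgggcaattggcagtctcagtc
Cpt1a: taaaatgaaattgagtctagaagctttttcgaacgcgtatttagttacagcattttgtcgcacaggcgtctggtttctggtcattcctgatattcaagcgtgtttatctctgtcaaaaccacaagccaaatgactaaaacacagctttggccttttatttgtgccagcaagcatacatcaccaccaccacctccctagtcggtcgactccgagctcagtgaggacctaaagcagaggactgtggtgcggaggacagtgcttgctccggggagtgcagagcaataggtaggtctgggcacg
Cpt2: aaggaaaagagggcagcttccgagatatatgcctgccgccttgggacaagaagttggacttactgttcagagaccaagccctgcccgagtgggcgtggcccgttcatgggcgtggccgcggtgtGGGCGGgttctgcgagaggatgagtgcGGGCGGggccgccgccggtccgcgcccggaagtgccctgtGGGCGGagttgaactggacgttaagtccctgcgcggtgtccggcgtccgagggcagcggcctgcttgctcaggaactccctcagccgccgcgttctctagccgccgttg
Among all 33469 promoter windows of the organism the median was 51.7% G and C and 7 CpG. GGGCGG was found on either strand in 33.1% of them and in the windows of Slc25a20, Cpt2, Acadm, Hadha and Hadhb. The nuclear receptor half-site AGGTCA was found in 16.2% of all windows and in those of Acadvl and Hadhb. The direct repeat AGGTCANAGGTCA (0.0538% of all windows), the letters TNAAGGTCA (1.2%), which extend the half-site, and TATAAA (14.2%) were in none of the 7, and CCAAT (37.5%) was in that of Hadha. These matches describe letters in a window and carry no information on binding.

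The members did not all move together under any of the drugs. Dox lowered Cpt1a at 6 hours while Acadvl, Acadl, Acadm, Hadha and Hadhb rose by less. By 24 hours it had lowered Cpt1b, Cpt1a and Cpt2 strongly. The matrix enzymes changed less there, by at most 0.30 on the log2 scale, with Acadl and Acaa2 called lower and Acadvl higher. Without library 7 of Dox the change of Acaa2 was -0.34. 5FU raised 8 members at 6 hours, and at 24 hours Cpt1a, Cpt2 and Acadl were higher and Acadvl and Hadhb lower. With Ace no member passed the test at 6 hours, while the ratio of Cpt1b to Cpt1a was lower, and at 24 hours Ace lowered Slc25a20, Cpt2 and Acaa2. Differences between conditions were tested by edgeR's quasi-likelihood test over all 14554 genes, and a gene was called at a Benjamini-Hochberg false discovery rate (FDR) below 0.01. Much of the transcriptome passed that threshold, so the count of members is given beside the share of all genes. Counts under another scaling or without some libraries have no such share beside them and describe only how the calls depend on the processing.

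At 6 hours of 5FU, 8 of 10 members were higher and 0 lower, where 47.9% of all genes were called, 23.4% higher and 24.5% lower. Their median log2 change was 0.31, against 0.00 over all genes. Under Ace at 6 hours, 0 of 10 members were called (31.7% of all genes). There 1 member, Acadm, had an unadjusted p below 0.05 by edgeR, and DESeq2 also called 0. Under Dox at 6 hours, 7 of 10 were called (64.2% of all genes), 5 higher (31.5% of all genes) and 2 lower (32.7%). Scaling by library size alone moved the median of all genes by -0.15 in this comparison, so that 3 members were then higher and 2 lower, and Acadvl and Acadl lost their calls. At 24 hours of 5FU, 5 were called (55.8% of all genes), 3 higher (28%) and 2 lower (27.8%). Under Ace at 24 hours, 3 were lower and 0 higher (37.2% of all genes called, 18.2% higher and 19.1% lower). By library size alone 1 was higher and 2 lower, as Cpt1a gained a call and Slc25a20 lost its call. Under Dox at 24 hours, 7 were called (81.4% of all genes), 1 higher (40.4%) and 6 lower (41%). With the size factors of DESeq2 or library size alone, Hadha and Hadhb also passed and 3 were higher. The median log2 change of the members in this comparison was -0.27.

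**Figure D1:**
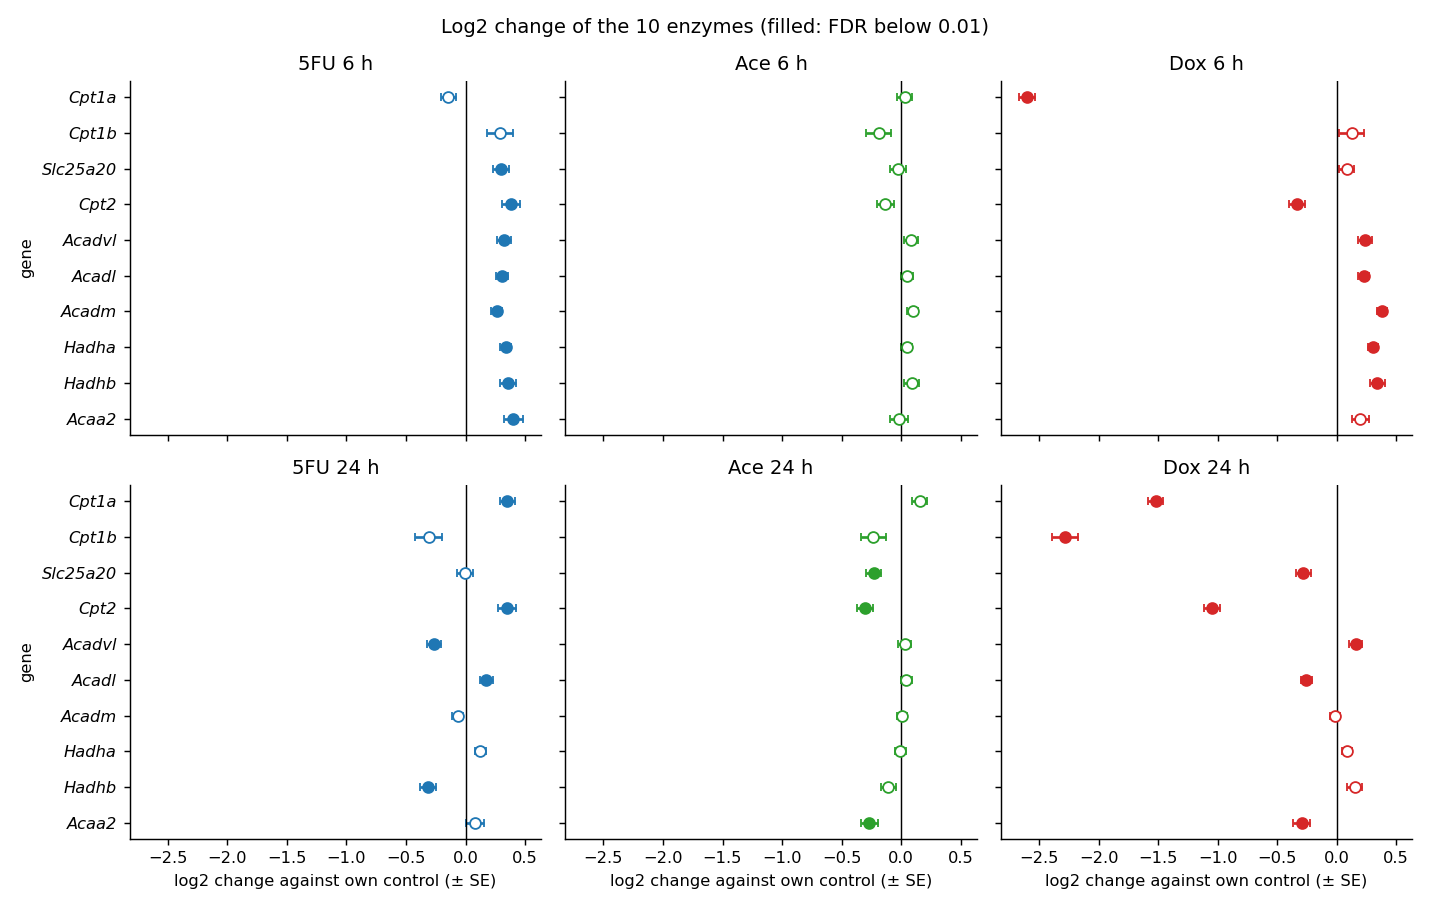
The log2 change of each of the 10 enzymes with its standard error is plotted for the 6 comparisons of a drug with its vehicle control, and filled points mark an FDR below 0.01. The points of Cpt1a, Cpt1b and Cpt2 under Dox lie farthest from 0, at -1.52, -2.28 and -1.05 after 24 hours, and no other point reaches 0.5 in size apart from Cpt1a under Dox at 6 hours, at -2.60.

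Cpt1a and Cpt1b catalyse the same entry step. In the DMSO2 control at 6 hours Cpt1a had a lowest, median and highest level of 166.7, 186 and 200 CPM. Under Dox at 6 hours the corresponding levels were 27.2, 29.3 and 34.5 CPM. The highest Dox library was far below the lowest control library, and the Dox libraries lay close together. Cpt1a fell by 2.60 on the log2 scale (SE 0.0654, FDR 5.07e-42), to 16.5% of the control mean, and ranked 65 among all decreases of the table. At 24 hours the DMSO2 libraries had 193.4, 201.1 and 224.6 CPM and the Dox libraries 65.4, 70.7 and 76.1 CPM. The ranges were again apart, but the Dox libraries stood higher than those at 6 hours, and the log2 change was -1.52 (SE 0.0620, FDR 1.89e-32), or 34.8% of control. The change at 24 hours minus that at 6 hours was 1.08 (SE 0.0876, FDR 2.98e-17).

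The other drugs moved Cpt1a less. DMSO1 libraries at 24 hours had 183.2, 202.0 and 229.2 CPM, and 5FU libraries had 244.2, 257.8 and 285.6 CPM. All 5FU libraries were above all DMSO1 libraries, and Cpt1a rose by 0.35 on the log2 scale (SE 0.0647, FDR 3.32e-06). At 6 hours the 5FU libraries, with 103.7, 131.6 and 150.7 CPM, overlapped those of DMSO1, with 122.9, 146.8 and 172.7 CPM. That difference of -0.14 (FDR 0.052) was not called, and the change in effect between the times, 0.50 (SE 0.0917, FDR 7.52e-06), was. Under Ace the differences were 0.03 (95% interval -0.09 to 0.15) at 6 hours and 0.15 (0.04 to 0.27, FDR 0.0284) at 24 hours, neither called. From the highest group mean to the lowest, Cpt1a spanned 8.55-fold, from 5FU at 24 hours to Dox at 6 hours. In the order of the means, 5FU at 24 hours, Dox at 24 hours and Dox at 6 hours overlapped with no neighbour, whereas each neighbouring pair from Ace at 24 hours down to 5FU at 6 hours had overlapping ranges.

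Cpt1b had another course. In the DMSO2 control at 6 hours its lowest, median and highest levels were 196.8, 211.9 and 215.5 CPM, and under Dox at 6 hours they were 202.2, 213.7 and 333.9 CPM. The groups overlapped, with library 4 of Dox above all others, and the difference of 0.12 (SE 0.103, FDR 0.276) fell to 0.01 without it. At 24 hours the DMSO2 libraries had 286.9, 299.6 and 317.8 CPM and the Dox libraries 31.3, 62.3 and 77.6 CPM. Every Dox library was below every control library, with library 7 lowest. Cpt1b fell by 2.28 on the log2 scale (SE 0.109, FDR 8.13e-29), to 20.7% of the control mean, and the change was -2.14 without library 7. The Dox effect on Cpt1b at 24 hours minus that at 6 hours was -2.40 (SE 0.149, FDR 1.89e-22), the opposite sign to that of Cpt1a.

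The levels of Cpt1b under the other drugs stayed closer to control. At 24 hours the DMSO1 libraries had 269.7, 284.9 and 321.1 CPM and the 5FU libraries 210.1, 234.9 and 255.4 CPM. These ranges did not overlap, yet the log2 change of -0.31 (SE 0.111, FDR 0.0122) was not called; it was called without library 1 of 5FU (-0.35, FDR 0.00832) and without the 3 libraries that stood apart (-0.33, FDR 0.000273). At 6 hours of 5FU the difference was 0.29 (FDR 0.0223), and it was 0.15 (FDR 0.237) without library 1 of 5FU, which had 359.9 CPM against 235.5 CPM in the next library, and 0.36 (FDR 0.00614) without library 4 of DMSO1. Under Ace the ranges were apart from those of DMSO2 at both times, with differences of -0.19 (FDR 0.154) at 6 hours and -0.23 (FDR 0.0555) at 24 hours that were not called. The difference at 24 hours was called without the 3 libraries that stood apart (-0.23, FDR 0.00519), and with the compared groups alone in the fit it was called at 6 hours (-0.19, FDR 0.000406) and at 24 hours (-0.23, FDR 0.000206). Across the 10 groups the mean level spanned 4.84-fold, and only Dox at 24 hours, the lowest, was separated from its neighbour.

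**Figure D2:**
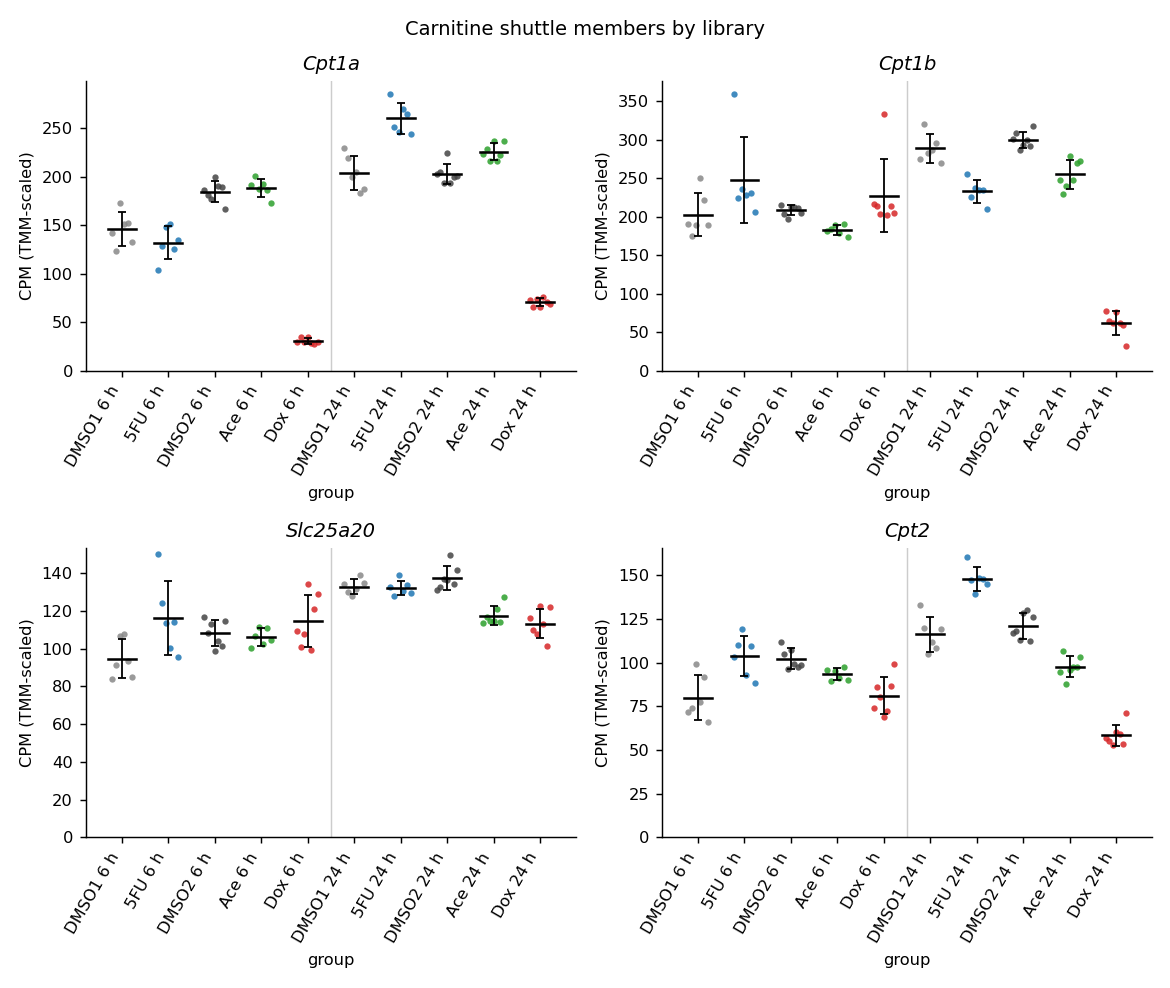
The level of Cpt1a, Cpt1b, Slc25a20 and Cpt2 in each of the 65 libraries is plotted in CPM (linear axis) for the 10 groups, with the mean and SD of each group. The Dox libraries of Cpt1a lie between 27.2 and 34.5 CPM at 6 hours and between 65.4 and 76.1 CPM at 24 hours, while those of Cpt1b drop to 31.3 to 77.6 CPM only at 24 hours.

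The balance of the isoforms was compared within each library as the log2 ratio of Cpt1b to Cpt1a counts, which does not depend on how libraries are scaled. Differences in the mean log2 ratio were tested by exact two-sided permutation tests, with p-values adjusted over 30 tests (3 ratios in 10 comparisons), and called below 0.05. The smallest p that the design allows is 0.00216 for 6 against 6 libraries and 0.000583 where 7 libraries are in a group. In DMSO2 at 6 hours the ratio had a lowest, median and highest value of 0.09, 0.16 and 0.30, and under Dox at 6 hours 2.63, 2.83 and 3.28. The Dox libraries lay far above the control, and the mean difference of 2.71 (adjusted p = 0.00291, exact permutation test) is a 6.53-fold shift towards Cpt1b counts. At 24 hours the values were 0.39, 0.57 and 0.66 in DMSO2 and -1.14, -0.26 and 0.23 under Dox. The direction was now the opposite, the ranges did not overlap, and the difference was -0.80 (adjusted p = 0.00291, exact permutation test), with library 7 of Dox lowest. The ratio was also lower with 5FU at 24 hours (-0.66, adjusted p = 0.00589, exact permutation test) and with Ace at 6 and 24 hours (-0.22 and -0.39, each adjusted p = 0.00291, exact permutation test).

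With 5FU at 6 hours the ratio was higher by 0.42 (adjusted p = 0.0371, exact permutation test), but by 0.24 (adjusted p = 0.0741, exact permutation test) without library 1 of 5FU. Leaving out library 1, 2, 3, 5 or 6 of DMSO1 gave differences of 0.35 to 0.43 with adjusted p between 0.078 and 0.104. The controls differed as well: the ratio was 0.30 higher in DMSO1 than in DMSO2 at 6 hours (adjusted p = 0.0161, exact permutation test), and -0.06 apart at 24 hours (adjusted p = 0.416, exact permutation test). From 6 to 24 hours it was 0.39 higher in DMSO2 (adjusted p = 0.00291, exact permutation test) and 0.03 higher in DMSO1 (adjusted p = 0.762, exact permutation test).

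**Figure D3:**
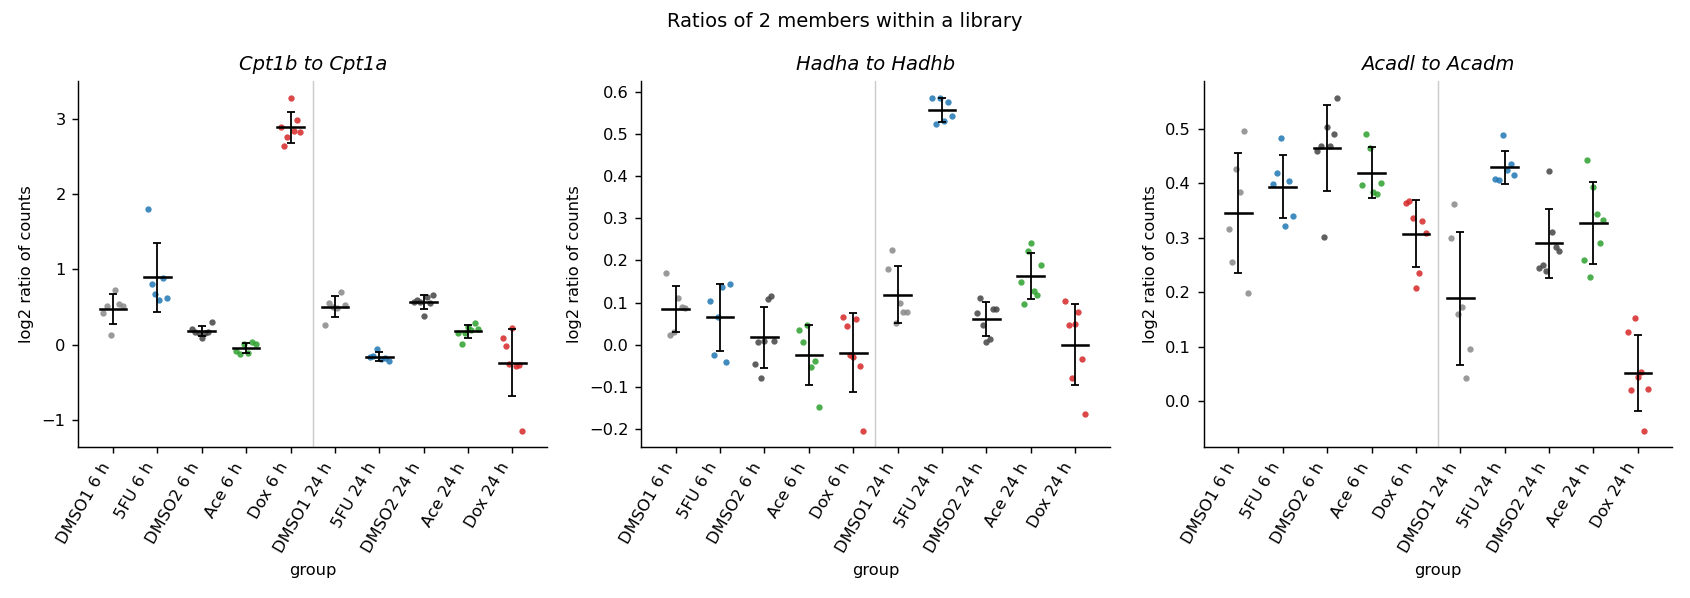
The log2 ratio of counts within each library is plotted for Cpt1b to Cpt1a, Hadha to Hadhb and Acadl to Acadm, with the mean and SD of each of the 10 groups. The Cpt1b to Cpt1a ratio under Dox at 6 hours lies above 2.63 in every library, and the Hadha to Hadhb ratio under 5FU at 24 hours, between 0.52 and 0.59, is apart from its control.

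Downstream in the shuttle, Cpt2 was lower under Dox at both times, and more so at the later time. At 24 hours the lowest, median and highest Cpt2 levels were 112.2, 118.1 and 129.9 CPM in DMSO2 and 52.6, 56.8 and 70.9 CPM under Dox. The ranges were far apart, and Cpt2 fell by 1.05 on the log2 scale (SE 0.0704, FDR 1.69e-21), to 48.3% of the control mean. At 6 hours it was already lower by 0.34 (FDR 2.14e-05), with 96.05, 99.4 and 112.0 CPM in DMSO2 and 68.7, 80.4 and 99.0 CPM under Dox, and with overlap. 5FU had the opposite sign: at 24 hours the DMSO1 libraries had 104.8, 115.4 and 132.7 CPM and the 5FU libraries 139.1, 147.4 and 160.3 CPM. All 5FU libraries were above the control, and Cpt2 rose by 0.35 (SE 0.0743, FDR 4.14e-05), after a rise of 0.38 (FDR 1.70e-05) at 6 hours. The 5FU effect minus the Dox effect, each against its own vehicle, was 0.71 (FDR 1.52e-08) at 6 hours and 1.397 (FDR 1.94e-19) at 24 hours. The value at 6 hours includes a difference between the vehicles, as Cpt2 was lower in DMSO1 than in DMSO2 by 0.35 on the log2 scale. The mean with 5FU at 6 hours was 103.9 CPM, near the 102.2 CPM of DMSO2. Ace lowered Cpt2 by 0.31 on the log2 scale at 24 hours (FDR 0.000171), with 87.7, 97.5 and 106.8 CPM below the whole control range, and its difference at 6 hours was -0.13 (FDR 0.134).

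The translocase Slc25a20 spanned 1.45-fold across the group means, from 95 ± 10.5 CPM (SD, n = 6) in DMSO1 at 6 hours to 138 ± 6.3 CPM (SD, n = 7) in DMSO2 at 24 hours. It rose with 5FU at 6 hours by 0.30 (FDR 0.000168), or by 0.21 (FDR 0.00465) without library 1 of 5FU. With the compared groups alone in the fit this call was lost (0.29, FDR 0.0274). The difference was -0.01 (95% interval -0.14 to 0.13) with 5FU at 24 hours. At 24 hours it fell with Ace by 0.23 on the log2 scale (FDR 0.00181) and with Dox by 0.28 (FDR 4.90e-05), and in both cases every treated library was below every DMSO2 library. Dox minus Ace was -0.05 at that time (95% interval -0.17 to 0.07). At 6 hours its differences were -0.03 with Ace and 0.08 with Dox, neither called.

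Among the acyl-CoA dehydrogenases, Acadvl had its lowest group at 24 hours of 5FU. There it had 153.9, 167.7 and 182.6 CPM, against 185.5, 195.8 and 231.1 CPM in DMSO1. The ranges did not overlap, and Acadvl fell by 0.27 on the log2 scale (SE 0.0608, FDR 0.000114), whereas at 6 hours of 5FU it had risen by 0.32 (FDR 6.73e-06). The change in effect was -0.59 (SE 0.0858, FDR 4.85e-08). Under Dox it was higher by 0.24 at 6 hours (FDR 0.000144), with ranges apart, and by 0.16 at 24 hours (FDR 0.00822), with overlap. The later call was lost without any of 7 libraries taken singly (libraries 1, 2, 3, 6 and 7 of DMSO2, 1 and 7 of Dox), with changes of 0.14 to 0.16 and FDR between 0.0104 and 0.0256, and without the 3 libraries that stood apart (0.13, FDR 0.0275).

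Acadl and Acadm, which act on long and medium chains, stayed within 1.36-fold across all group means. Acadl rose with 5FU at 6 hours (0.31, FDR 9.02e-07) and with Dox at 6 hours (0.23, FDR 3.86e-05), with ranges apart in each case. At 24 hours of Dox it fell by 0.25 on the log2 scale (FDR 2.95e-06), and its 7 libraries, with 226.6, 246.1 and 289.6 CPM, partly overlapped the control, with 276.2, 285.6 and 336.6 CPM. With 5FU at 24 hours it was higher by 0.17 (FDR 0.00287), a call lost without library 3 of DMSO1 (0.16, FDR 0.0112). Acadm rose with 5FU at 6 hours (0.26, FDR 1.4e-06) and with Dox at 6 hours (0.38, FDR 3.03e-12), again with ranges apart. At 24 hours it lay at its control under each drug, with log2 differences of -0.06 (95% interval -0.15 to 0.02) for 5FU, 0.01 (-0.08 to 0.09) for Ace and -0.01 (-0.10 to 0.07) for Dox. The log2 ratio of Acadl to Acadm was lower with Dox at 6 hours by 0.16 on the log2 scale (adjusted p = 0.00875, exact permutation test) and at 24 hours (-0.24, adjusted p = 0.00291, exact permutation test), and higher with 5FU at 24 hours (0.24, adjusted p = 0.00589, exact permutation test).

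Hadha and Hadhb form the same enzyme and share the promoter stretch printed above, and in most groups their levels kept a steady ratio. At 6 hours both rose with 5FU, Hadha by 0.34 (FDR 1.21e-08) and Hadhb by 0.36 (FDR 4.91e-06), and with Dox, by 0.30 (FDR 1.16e-08) and 0.34 (FDR 1.57e-06). At 24 hours of 5FU they parted. Hadhb had 483.5, 521.7 and 546.3 CPM in DMSO1 and 392.5, 417.0 and 433.4 CPM with 5FU. Every 5FU library was below every control library, and Hadhb fell by 0.31 on the log2 scale (SE 0.0664, FDR 3.57e-05). Hadha had 519.6, 566.1 and 590.1 CPM in DMSO1 and 588.2, 614.2 and 650.4 CPM with 5FU. The ranges just touched, and the difference of 0.12 (SE 0.0474, FDR 0.0201) was not called (it was without library 2 of 5FU, at 0.15 and FDR 0.00862, and without the 3 libraries that stood apart, at 0.13 and FDR 0.00633).

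The log2 ratio of Hadha to Hadhb was between 0.05 and 0.23 in the 6 DMSO1 libraries and between 0.52 and 0.59 in the 6 5FU libraries at 24 hours. The difference of 0.44, or 1.35-fold, had an adjusted p of 0.00589 (exact permutation test), and the p before adjustment was the smallest that 6 against 6 libraries can give. Ace at 24 hours gave a smaller difference in the same direction, 0.10 (adjusted p = 0.00501, exact permutation test), with overlapping ranges. Of the other 8 comparisons of this ratio none was called, and their differences lay between -0.06 and 0.07. Under Dox at 24 hours Hadha and Hadhb were 0.09 (FDR 0.0644) and 0.15 (FDR 0.0202) above control. Library 7 of Dox had 813.6 CPM of Hadhb against 603.9 CPM in the next, and without it the Hadhb difference was 0.10. Hadha passed without library 3 or 6 of Dox (0.13), and Hadhb without any of libraries 2 to 6 of Dox (0.19).

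The thiolase Acaa2 rose with 5FU at 6 hours by 0.40 (SE 0.0774, FDR 1.05e-05), the largest rise of any member there with all libraries in the fit. Without library 1 of 5FU it rose by 0.34 (FDR 0.000162), less than Cpt2 (0.38). The levels of Acaa2 were 188.1, 232.0 and 261.8 CPM in DMSO1 and 238.2, 322.5 and 361.3 CPM with 5FU. The groups overlapped, with libraries 4 and 6 of 5FU inside the control range. With Dox at 6 hours its difference of 0.20 (FDR 0.011) just missed the threshold and passed it without library 3 of DMSO2, 1 of Dox or 5 of Dox (0.22 to 0.23), or without the 3 libraries that stood apart (0.20, FDR 0.00443). At 24 hours Acaa2 fell by 0.27 on the log2 scale with Ace (FDR 0.00129) and by 0.30 with Dox (FDR 0.000157), in both cases with overlap of the ranges. Under Dox, library 7 (298.3 CPM) stood above the other 6 (204.5 to 237.7 CPM). Without library 7 the change was -0.34 (FDR 1.66e-05), and without the 3 libraries that stood apart it was -0.36 (FDR 2.03e-06).

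**Figure D4:**
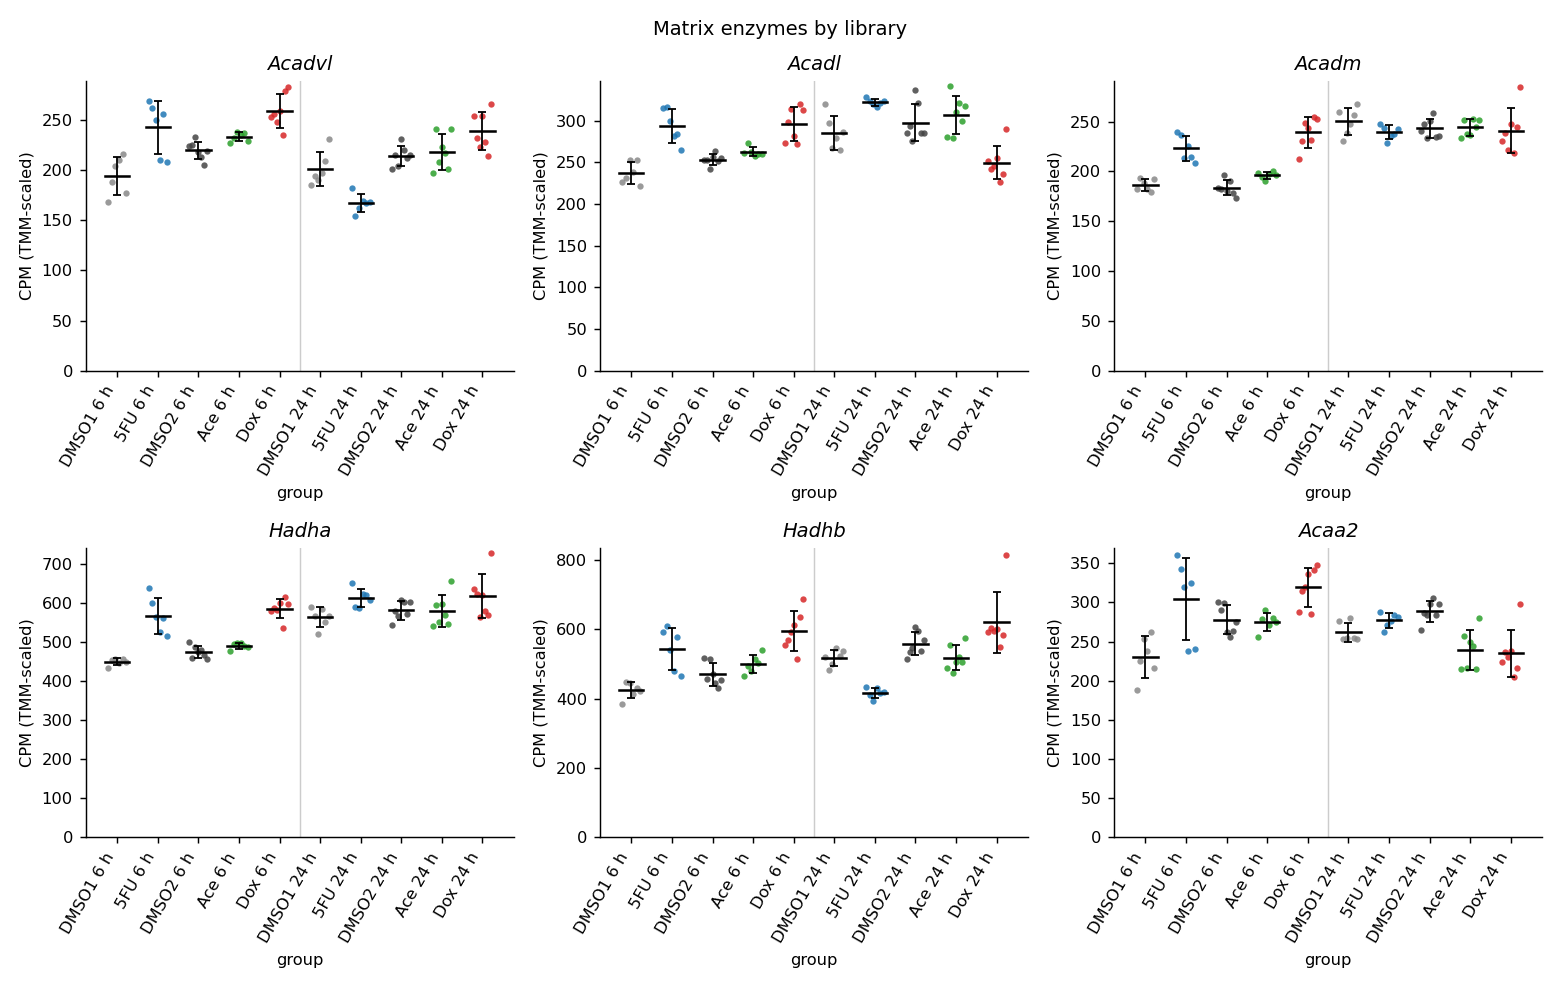
The level of the 6 matrix enzymes Acadvl, Acadl, Acadm, Hadha, Hadhb and Acaa2 in each library is plotted in CPM (linear axis) for the 10 groups, with the mean and SD of each group. Group means span 1.36-fold to 1.55-fold for each gene, and the 5FU libraries of Hadhb at 24 hours, between 392.5 and 433.4 CPM, lie below those of their control.

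The ranges of a drug and its control were apart for 4 members with 5FU, 1 with Ace and 5 with Dox at 6 hours, where 28.2%, 24.5% and 42.6% of all genes were apart. At 24 hours they were apart for 5 members with 5FU, 3 with Ace and 4 with Dox, against 42.9%, 26.9% and 68.2% of all genes. A single gene is 10% of the members, and the difference of these shares from the background was not tested.

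The effects of 5FU and Dox changed between the times. The 5FU effect at 24 hours minus that at 6 hours was called for 7 members (39.5% of all genes), 1 higher (20.3%), Cpt1a, and 6 lower (19.2%), led by Hadhb (-0.67, FDR 1.63e-08), Cpt1b (-0.60, FDR 0.00111) and Acadvl (-0.59). The call of Slc25a20 (-0.30) was lost without library 2, 4, 5 or 6 of 5FU at 24 hours, 1 or 2 of 5FU at 6 hours, 5 or 6 of DMSO1 at 24 hours or 1, 2 or 6 of DMSO1 at 6 hours (-0.30 to -0.22). That of Hadha (-0.21) was lost without library 2, 3, 5 or 6 of 5FU at 24 hours, 1 or 2 of 5FU at 6 hours or 1, 2, 4 or 6 of DMSO1 at 24 hours (-0.21 to -0.18). Without the 3 libraries that stood apart both calls were lost (Slc25a20 -0.22, FDR 0.0357, and Hadha -0.17, FDR 0.0161). For Dox, 8 members were called (64.8% of all genes), 1 higher (34%), again Cpt1a, and 7 lower (30.8%), with Cpt1b and Cpt2 (-0.71, FDR 3.04e-09) first and Acaa2 (-0.49), Acadl (-0.48), Acadm (-0.39), Slc25a20 (-0.36) and Hadha (-0.22) after them. Scaling by library size alone moved the median of all genes by 0.27 in that comparison, and Hadha (-0.02) and Slc25a20 (-0.16) then lost their calls. Hadha also lost its call without library 3 or 6 of Dox at 24 hours (-0.18), and without the 3 libraries that stood apart Hadhb passed (-0.27, FDR 0.00129). For Ace, 0 members were called (11.6% of all genes, 5.58% higher and 6.06% lower) by edgeR or by DESeq2, and 3 had an unadjusted p below 0.05.

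Dox and Ace shared the DMSO2 control and were also compared directly. At 6 hours 7 members differed (62.1% of all genes, 30.6% higher and 31.4% lower): Cpt1a was lower with Dox than with Ace (-2.63, FDR 1.35e-41), and Cpt1b (0.31), Acadm (0.28), Hadha (0.26), Hadhb (0.25), Acaa2 (0.21) and Acadl (0.17) were higher. By library size alone, which moved the median of all genes by -0.11, 2 were higher and 2 lower. The call of Cpt1b was lost without library 4 of Dox (0.19, FDR 0.0835) or any of the 6 Ace libraries. That of Acaa2 was lost without any Ace library or library 2, 3, 4, 6 or 7 of Dox (0.19 to 0.22), and that of Acadl without library 3 or 6 of Ace (0.15). Without the 3 libraries that stood apart Cpt2 also passed as lower with Dox (-0.21, FDR 0.00606). At 24 hours 5 differed (80.6% of all genes, 40.7% higher and 39.9% lower), with Cpt1b (-2.05), Cpt1a (-1.68), Cpt2 (-0.74) and Acadl (-0.30) lower and Hadhb (0.26) higher with Dox. The size factors of DESeq2 added Acadvl (0.18) and Hadha (0.14) as higher. The 5FU effect minus the Dox effect was called for 2 members at 6 hours (45.9% of all genes, 24% higher and 22% lower), Cpt1a (2.45) and Cpt2, and for 8 at 24 hours (71.1% of all genes), 6 higher (35.4%) and 2 lower (35.8%), with Cpt1b (1.97), Cpt1a (1.87) and Cpt2 (1.397) largest. The call of Slc25a20 at 24 hours (0.27) was lost with DESeq2 (0.23) and without library 1, 3, 4 or 5 of 5FU, 2, 3 or 6 of DMSO1, 5 of DMSO2 or 2, 3, 5 or 6 of Dox (0.23 to 0.27).

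The vehicle controls were compared between the DMSO doses and between the times. Time in culture and time in DMSO changed together from 6 to 24 hours and cannot be told apart. At 6 hours 3 members were lower in DMSO1 than in DMSO2 (16.5% of all genes called, 9.87% higher and 6.6% lower): Cpt2 (-0.35, FDR 0.000137), Cpt1a (-0.34, FDR 2.90e-05) and Acaa2 (-0.27, FDR 0.00466). No member had ranges apart (5.07% of all genes), and the call of Acaa2 was lost without library 1, 2 or 6 of DMSO1 or 1, 2 or 3 of DMSO2 (-0.26 to -0.21). Library size alone gave 8 lower members, but the share of all genes called under that scaling is not given here. That count is therefore not a result about the members. At 24 hours 0 members differed (0.433% of all genes) by edgeR or DESeq2, and 0 had an unadjusted p below 0.05. From 6 to 24 hours, with DMSO1 and DMSO2 averaged at equal weight, 8 members rose and 0 fell (64.6% of all genes called, 32.7% higher and 31.9% lower). Cpt1b rose by 0.52 (SE 0.0758, FDR 1.33e-08), Slc25a20 and Acadm by 0.42 each, Cpt2 by 0.39, and Cpt1a and Hadha by 0.31 each. Hadhb rose by 0.27 and Acadl by 0.25, whereas Acadvl (0.01, FDR 0.882) and Acaa2 (0.12, FDR 0.0377) did not pass. The mean of Cpt1a went from 145.6 to 203.8 CPM in DMSO1 and from 184.4 to 202.8 CPM in DMSO2. That of Cpt2 went from 79.9 to 116.1 CPM and from 102.2 to 120.7 CPM, and that of Cpt1b from 202.7 to 288.7 CPM and from 208.4 to 299.9 CPM. A difference between the vehicles in the rise of single members was not tested.

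Markers of the cell types moved with several of these results. Of all genes, 81.4% were called under Dox (41% lower), 55.8% with 5FU (27.8% lower) and 37.2% with Ace (19.1% lower) at 24 hours. At 6 hours 64.2% were called under Dox (31.5% higher) and 16.5% for DMSO1 against DMSO2 (6.6% lower), and over time in the controls 64.6%. Of the cardiomyocyte markers, 86.7% were called under Dox and 60% with 5FU at 24 hours, near these shares for either direction. By direction they were not near: 12 of 15 were lower under Dox (41% of all genes) and 8 of 15 with 5FU (27.8%). At 24 hours the summed cardiomyocyte markers had a lowest, median and highest level of 48148, 56661 and 61623 CPM in DMSO2 and 18378, 22420 and 26577 CPM under Dox, and 12 of 15 were lower, 1 higher. The 12 fibroblast markers were all lower under Dox at 24 hours. Their sum had a median of 16845 CPM in DMSO2 and 3578 CPM under Dox. All 10 endothelial and all 11 macrophage markers were lower as well. The 7 smooth muscle markers went both ways there, 3 higher and 2 lower, with median sums of 832 CPM in DMSO2 and 1437 CPM under Dox. At 6 hours of Dox 4 of these 7 were higher and 2 lower, with median sums of 1044 and 2889 CPM. At 24 hours 5 of them were lower and 2 higher with 5FU, and 5 lower and 0 higher with Ace. With 5FU at 24 hours the cardiomyocyte sum was 35041 to 37633 CPM against 47944 to 53674 CPM in DMSO1, with 8 of 15 lower and 1 higher, and the fibroblast sum 5251 to 5920 CPM against 10105 to 20099 CPM. With Ace at 24 hours the fibroblast sum was 7367 to 9405 CPM against 15337 to 19120 CPM, with 11 of 12 lower, and the cardiomyocyte sum, 47213 to 65821 CPM, overlapped its control. At 6 hours of Dox, 10 of 15 cardiomyocyte markers were higher and 3 lower, with sums of 50011 to 68346 CPM against 51207 to 56052 CPM, while all 10 endothelial markers were lower. At 6 hours the fibroblast sum had a median of 9257 CPM in DMSO1 and 12503 CPM in DMSO2, with 9 of 12 markers lower in DMSO1, and 8 of 10 endothelial markers were lower as well. The cardiomyocyte markers went the other way, with 8 of 15 higher and 1 lower in DMSO1 and median sums of 69190 and 52083 CPM. Of the 7 smooth muscle markers 3 were higher and 2 lower in DMSO1, with median sums of 2737 and 1044 CPM. From 6 to 24 hours in the controls, 11 of 12 fibroblast and 9 of 11 macrophage markers were higher and 0 lower, 6 of 10 endothelial markers were higher and 3 lower, and of the cardiomyocyte markers 4 were higher and 7 lower. No marker of these lists was at 0 in all libraries of a group. The part of cell composition in the enzyme results was not tested.

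Other genes of fatty acid oxidation were read from fixed lists, and their counts stand beside the shares of all genes called. Under Dox at 24 hours, all 8 measured genes that set or sense the malonyl-CoA brake on Cpt1 were lower, with a median log2 change of -0.93 (81.4% of all genes called, 41% lower). Acacb, which makes malonyl-CoA at the mitochondrion, had 412 to 521 CPM in DMSO2 and 45.6 to 90.3 CPM under Dox, and fell by 3.02 on the log2 scale (FDR 4.18e-38). Mlycd, which degrades malonyl-CoA, fell by 0.99 (FDR 2.22e-28). At 6 hours of Dox 6 of the 8 were lower and 0 higher (64.2% of all genes called, 32.7% lower), Acacb by -0.65 and Mlycd by -0.15. With 5FU at 24 hours 4 were lower and 1 higher (55.8% of all genes called), and with Ace at 24 hours 1 and 1 (37.2%). The kinase subunit Prkag2 had the largest decrease of the list with 5FU (-1.15) and with Ace (-0.42) at 24 hours.

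Of 15 other mitochondrial oxidation genes, 8 were higher and 0 lower with 5FU at 6 hours (median 0.26), which is 53.3% of the list against 47.9% of all genes called, 23.4% higher, led by the reductase Decr1 (0.38, FDR 9.86e-09). Under Dox 6 of them were higher and 0 lower at the earlier time (40% of the list against 64.2% of all genes), and at 24 hours 3 were higher and 9 lower (median -0.34), or 80% of the list against 81.4% of all genes. Hadh, the short-chain hydroxyacyl-CoA dehydrogenase, fell by 1.95 on the log2 scale at 24 hours (FDR 1.59e-28). The carrier Slc25a29 had the largest rise of the list, 3.997 (FDR 2.84e-39), from a mean of 3.87 CPM in DMSO2 to 61.8 CPM. Whether this carrier takes part in fatty acid oxidation was not tested, so its rise is not read as one of the pathway. Ace lowered 7 of the 15 at 24 hours and raised 0 (median -0.17; 37.2% of all genes called, 19.1% lower), and 5FU at 24 hours lowered 5 and raised 2 (55.8% of all genes), Acadsb having the largest decrease in both (-0.49 and -0.96).

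Of 15 genes of fatty acid uptake, activation and release, 8 were lower and 6 higher under Dox at 24 hours, which is 93.3% of the list where 81.4% of all genes were called, 40.4% higher and 41% lower. Acsl1, which activates long-chain fatty acids, fell by 2.11 on the log2 scale (FDR 3.66e-23), the binding protein Fabp3 fell by 1.20 (FDR 1.25e-17), and Abhd5, a coactivator of triglyceride release, rose by 1.54. The same background holds for the following lists under Dox. Of 12 genes of peroxisomal oxidation 8 were lower and 4 higher at 24 hours, with the largest decrease for Hsd17b4 (-1.82). Of 4 genes of ketone body use, 2 were higher and 1 lower there, and 5FU at 24 hours raised 2 (55.8% of all genes called, 28% higher). Of 11 targets of PPAR receptors, which switch on fatty acid genes, 4 were higher and 5 lower under Dox at 24 hours. Angptl4 (2.63) and Plin4 (-3.90) were at the ends, and Pdk4, which restrains glucose oxidation, rose by 1.10 (FDR 1.12e-16).

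Of 19 transcription factors and coregulators of the pathway, 11 were lower and 2 higher under Dox at 6 hours (median -0.55), or 68.4% of the list against 64.2% of all genes. At 24 hours 10 were lower and 6 higher (median -0.43), or 84.2% against 81.4%. Ppargc1a, the coactivator of mitochondrial genes, had 40.6 to 50.1 CPM in DMSO2 at 6 hours and 11.5 to 15.5 CPM under Dox, and fell by 1.72 on the log2 scale (FDR 1.22e-30), and at 24 hours it fell by 2.18 (FDR 1.06e-36). It was also lower with 5FU (-1.08 at 6 hours, -0.34 at 24 hours) and with Ace (-0.51 and -0.33). Ppara fell by 0.78 on the log2 scale at 6 hours of Dox (FDR 2.53e-08) and fell by 1.46 at 24 hours (FDR 1.84e-18). Esrra, an orphan receptor that acts with Ppargc1a, was at -0.19 (FDR 0.0213) and -0.03 (FDR 0.714) under Dox and rose by 0.49 (FDR 3.29e-07) with 5FU at 24 hours, from 107 to 145 CPM in DMSO1 to 156 to 184 CPM. At the ends of the list under Dox at 24 hours were Klf5 (4.29) and Rxrg (-4.79).

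Members also varied together among cultures of the same group. Over 65 libraries, after the group mean was taken off, Pearson's r between log2 CPM of 2 members had a median of 0.503 over 45 pairs (lowest -0.283, highest 0.837, 34 above 0). For the 21 pairs without Cpt1a, Cpt1b or Cpt2 it lay between 0.387 and 0.837. The points share their library, its depth and its cell composition, and these values are a description. Over the 10 group means the median r was 0.239 (-0.688 to 0.93). These values depend on the Dox groups. Over the 8 other groups r went from -0.131 to 0.733 for Cpt1b and Hadha and from 0.0608 to 0.856 for Cpt1b and Acadm. It went down from 0.78 to 0.53 for Cpt1b and Cpt2 and from 0.529 to 0.355 for Hadha and Hadhb. The matches that follow also include the Dox groups. Among 10509 genes, those whose group means were most like Cpt1a were Nr1d2 (r = 0.985), Trmt1l (0.982) and Map10 (0.981), those most like Cpt1b were Sirt2 (0.988), Ptdss2 (0.988) and Anxa6 (0.984), and those most like Hadha were Cd59b (0.963), Decr1 (0.963) and Prickle2 (0.948), each over 10 group means.

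**Figure D5:**
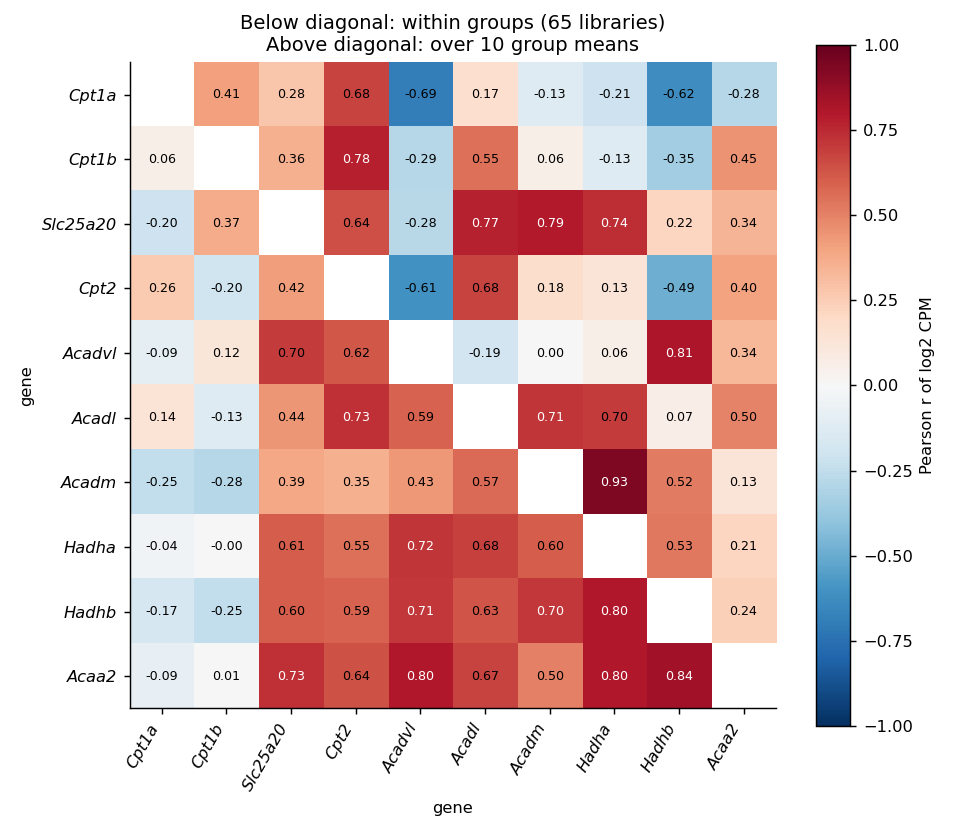
Pearson's r between log2 CPM of each pair of the 10 enzymes is shown as colour, below the diagonal for deviations from the group mean over 65 libraries and above it for the 10 group means. The 21 pairs without Cpt1a, Cpt1b and Cpt2 lie between 0.387 and 0.837 below the diagonal.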

How the data were processed

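Per the labels and the study's methods, the authors aligned paired reads of polyA RNA with kallisto 0.46.0 to the rat transcriptome, summed transcripts to genes, removed low genes and deposited whole-number counts per gene. The deposited counts are estimates, so reads shared by similar transcripts are divided by the estimator, and counting on strand is not given in the sources used here. Columns were matched to groups by name and carry no replicate number, so library numbers only name libraries. All 14554 genes in 65 libraries entered 1 edgeR 4.0.16 quasi-likelihood fit (R 4.3.3) over 10 groups, with TMM scaling and a filter of 10 counts in at least 1 library, which kept every gene; calls used an FDR below 0.01. Log2 CPM used a prior count of 2. Count ratios were compared by exact permutation tests (numpy 2.4.6). The edgeR test was checked on simulated counts for Dox at 24 hours, with a small part of the genes changed. In the data 81.4% of genes were called in that comparison, so the check does not cover scaling under so broad a change. DESeq2 1.42.0 was an alternative. The members, gene lists and tests were chosen with earlier results of these data known. Genes outside the 10 were named by a rule: a set of 10 genes of fatty acid supply and its control (2 of them not analysed here, 8 measured), the largest called increase and decrease of a list in a drug comparison among genes averaging 100 counts or more, and 3 genes most like Cpt1a, Cpt1b and Hadha over group means. The authors' own table of comparisons was not used. Some genes named by this rule are not reported here.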

Additional observations from a re-analysis of the deposited data

Results flagged for a closer look

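In 8 of 100 sets of libraries (10 genes in 10 groups) 1 library lay apart from the rest of its group by Dixon's criterion, which flags about 1 in 20 sets by chance. Library 7 of Dox at 24 hours gave 4 of them, with Cpt1b at 31.31 CPM (next 58.86), Cpt2 at 70.94 (next 60.11), Hadhb at 813.6 (next 603.9) and Acaa2 at 298.3 (next 237.7). Cpt1b stood high in library 1 of 5FU at 6 hours, at 359.9 CPM (next 235.5), and in library 4 of Dox at 6 hours, at 333.9 (next 217.0). Cpt1a in library 4 of DMSO2 at 24 hours had 224.6 CPM (next 205.0), and Acadl in library 2 of Ace at 6 hours had 273.5 (next 262.2).

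The drug effect on 15 gene and drug pairs differed between 24 and 6 hours by the interaction term of edgeR. For 5FU the log2 differences in effect were 0.4953 for Cpt1a, -0.5986 for Cpt1b, -0.3029 for Slc25a20, -0.5885 for Acadvl, -0.3256 for Acadm, -0.2135 for Hadha and -0.6738 for Hadhb. For Dox they were 1.078 for Cpt1a, -2.403 for Cpt1b, -0.363 for Slc25a20, -0.7127 for Cpt2, -0.4799 for Acadl, -0.3939 for Acadm, -0.2175 for Hadha and -0.4944 for Acaa2.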

How the results depend on the processing

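Of 160 member changes, 152 kept their call with DESeq2, 160 without a filter and 138 with library size alone; 100 of 4330 alternative values changed sign, 0 of them called. With a log2 change of at least 0.5 also asked, the members called were 0 and 1 at 6 hours (5FU, Dox), 0, 0 and 3 at 24 hours (5FU, Ace, Dox), 0 for DMSO1 against DMSO2 at 6 hours, 1 for the controls over time, 3 for the change in the 5FU effect and 3 in the Dox effect, 1 and 3 for Dox minus Ace at 6 and 24 hours, and 3 for the 5FU minus the Dox effect at 24 hours. At an FDR below 0.1 they were 1 for Ace at 6 hours, 5 for Ace at 24 hours, 6 for DMSO1 against DMSO2 at 6 hours, 1 for the change in the Ace effect and 5 for the 5FU minus the Dox effect at 6 hours. With the compared groups alone in the fit they were 1 and 5 for Ace at 6 and 24 hours and 1 for the change in the Ace effect, and 4 calls were lost. Library size alone gave 8 for DMSO1 against DMSO2 and 4 for Dox minus Ace at 6 hours. Leaving out 1 library gave 2 to 5 and 4 to 8 for these comparisons (5 without library 4 of DMSO1, 4 without library 3 of Ace). Medians in place of means gave Cpt1b to Cpt1a differences of 0.22 with 5FU at 6 hours (adjusted p = 0.0956, exact permutation test) and 0.35 for DMSO1 against DMSO2 at 6 hours (0.0918), and an Acadl to Acadm difference of -0.14 with Dox at 6 hours (0.153). Leaving out 1 library gave 0.24 to 0.48 for Cpt1b to Cpt1a with 5FU at 6 hours, and for Acadl to Acadm -0.0717 to -0.0291 with Ace at 6 hours, -0.15 to -0.0884 and -0.14 to -0.0716 for DMSO1 against DMSO2 at 6 and 24 hours, and -0.19 to -0.13 for DMSO1 over time. The shares of all genes called under these settings are not given here. The counts therefore do not show whether the members gained or lost calls more than other genes did. The causes were not tested. Without the 3 libraries that stood apart, a choice made after seeing the data, 7 members were called with 5FU and 6 with Dox at 24 hours, 8 with 5FU and 8 with Dox at 6 hours. No paired analysis was possible because the columns carry no replicate numbers.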
